A study of Sus scrofa with 14 samples.

Results

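The involuted mammary gland of the sow was compared with the gland of late gestation. The 4 libraries compared are 4 of the 10 single-nucleus libraries of gland tissue and of the 14 samples in the whole series. They were chosen by stage label: 2 sows at day 90 of gestation (G90) and 2 sows 7 days after natural involution (PI7). All were multiparous pigs (Sus scrofa) without a treatment or an altered allele, each library came from frozen tissue of 1 gland, and breed and age are not given in the sources used here. In such a library each nucleus has its own barcode, and each captured RNA molecule has its own short tag, a unique molecular identifier (UMI). UMIs were summed for each library over nuclei with at least 300 detected genes, and summed again over only those with at least 1 UMI of EPCAM, an adhesion protein of epithelial cells. Each stage thus has 2 replicates, the sows. The other 6 gland libraries, from days 0 and 20 of lactation (L0, L20) and 2 days after involution (PI2), entered the fits so that the 5 stages share 1 estimate of the spread.

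In late gestation the mammary epithelium proliferates and forms alveoli under progesterone and prolactin. Luminal cells begin to make milk proteins before birth. After suckling ends, prolactin signalling through STAT5 falls away, cytokines of the interleukin-6 family signal through STAT3, lysosomal proteases and programmed cell death remove alveolar cells, macrophages clear milk and debris, and fat and vessels refill the space. The comparison asks how far the involuted gland lies from the late gestation gland, which is under the hormones of pregnancy.

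The nuclei of at least 300 genes numbered 11469 and 18694 at G90 and 16691 and 10076 at PI7, 56930 of 127926 in all gland libraries. Those with an EPCAM UMI numbered 2748 and 6937 at G90 and 2794 and 2540 at PI7, 15019 of 26994. UMIs per library were 33171874 and 53163303 at G90 and 38917782 and 21006477 at PI7, with medians per nucleus of 2210, 2496, 1845 and 1773. No 2 of the 10 libraries shared more than 1.23% of the barcodes of either. EPCAM UMIs were also found in 18.2% and 25.5% of the nuclei with a UMI of PTPRC, a leukocyte gene, at G90 and in 13.8% and 21.8% at PI7 (median depths of 1759, 1946, 1801 and 1724 UMIs). The share among all nuclei was 24.0% and 37.1% at G90 and 16.7% and 25.2% at PI7. In nuclei with a UMI of PECAM1 or VWF, endothelial genes, it was 28.8% and 41.8% against 17.3% and 26.6%. These values exceed those of all nuclei, at median depths of 2998, 3107, 2178 and 2097 UMIs. With at least 2 UMIs of KRT8, KRT18 or CDH1, epithelial genes, it was 44.4% and 50.9% against 46.7% and 46.5%. A single EPCAM UMI thus marked epithelial nuclei only in part, and a PECAM1 or VWF UMI did not mark nuclei poor in EPCAM. EPCAM nuclei were deeper than the others (medians of 4197, 3206, 3049 and 2559 UMIs against 1732, 2088, 1553 and 1528), and 30.3% and 46.5% of them at G90 and 28.8% and 42.7% at PI7 lacked any UMI of PTPRC, PECAM1, VWF, COL1A1, COL3A1 and PDGFRB, markers of leukocytes, endothelium and stroma. In bulk sums of this kind, fewer nuclei of a type and less RNA per nucleus cannot be told apart.

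The sequences below are shown because the milk protein genes were lower at PI7, while GCLC rose in EPCAM nuclei and NQO1 was higher there. They are the 250 bases before the start of 4 genes in the RefSeq annotation of Sscrofa11.1, written 5′ to 3′ on the gene's strand. CSN1S1 (chr8:66887981-66888230, plus strand) and CSN2 (chr8:66922637-66922886, minus strand) encode caseins. Capitals in both mark TTCNNNGAA, the letters that STAT5 and other STAT factors recognise, at 104 and 106 bases before the start.
CSN1S1: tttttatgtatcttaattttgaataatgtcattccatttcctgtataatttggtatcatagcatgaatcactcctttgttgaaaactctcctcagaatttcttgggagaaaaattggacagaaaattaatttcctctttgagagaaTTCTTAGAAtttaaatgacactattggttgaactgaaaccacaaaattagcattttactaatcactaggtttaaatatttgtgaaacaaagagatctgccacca
CSN2: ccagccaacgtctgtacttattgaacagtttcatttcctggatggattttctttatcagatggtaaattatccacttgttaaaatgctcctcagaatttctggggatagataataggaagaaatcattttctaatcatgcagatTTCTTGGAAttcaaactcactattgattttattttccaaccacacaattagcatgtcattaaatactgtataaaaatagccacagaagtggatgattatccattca
GCLC (chr7:27209315-27209564, plus strand) and NQO1 (chr6:17292712-17292961, plus strand) encode enzymes of glutathione synthesis and of quinone reduction. Capitals mark TGACNNNGC, the core of the antioxidant response element, at 182 and 210 bases before the start.
GCLC: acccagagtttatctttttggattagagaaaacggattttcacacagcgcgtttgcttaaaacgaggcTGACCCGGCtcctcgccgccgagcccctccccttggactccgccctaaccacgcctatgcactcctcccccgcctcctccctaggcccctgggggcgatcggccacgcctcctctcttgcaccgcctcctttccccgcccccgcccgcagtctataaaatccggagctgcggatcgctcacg
NQO1: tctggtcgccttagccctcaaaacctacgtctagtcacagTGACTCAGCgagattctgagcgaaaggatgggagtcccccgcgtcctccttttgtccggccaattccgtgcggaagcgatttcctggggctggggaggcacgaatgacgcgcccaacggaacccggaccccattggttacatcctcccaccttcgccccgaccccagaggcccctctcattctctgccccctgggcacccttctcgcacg
Both strands were searched in 19556 windows of protein-coding genes. TTCNNNGAA was found in 6.12% of them and TGACNNNGC in 9.97%. CACGTG, the E-box of lysosomal gene regulation, was found in 6.39% and was not in the window of CTSD, a lysosomal protease gene. The windows of CSN3, LALBA and LPO, further genes of milk proteins, hold no TTCNNNGAA. These genes were picked after their values were seen, and a match of letters is a description and not a binding site.

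Over all genes, the distances between PI7 and G90 glands overlapped the distances between 2 glands of 1 stage, in all nuclei and in EPCAM nuclei. The median absolute difference between 2 libraries (log2 of CPM plus 1, where CPM is the UMIs of a gene per 1000000 of the library size after TMM scaling) over 10740 genes in all nuclei was 0.607 between the G90 glands and 0.603 between the PI7 glands. The 4 pairs across the stages were 0.406 and 0.584 from G90 replicate 1 and 0.929 and 0.672 from G90 replicate 2, to PI7 replicates 1 and 2. The ranges thus overlap: the closest pair across the stages differed less than either pair within a stage, and the pair of G90 replicate 2 and PI7 replicate 1 differed most of these 6. At the other stages the 2 glands were 0.260 apart at L0, closer than any pair of G90 and PI7, 0.817 at L20 and 0.677 at PI2. In EPCAM nuclei (10175 genes) the pairs across the stages were 0.457, 0.474, 0.779 and 0.666 (mean 0.594) beside 0.480 within G90 and 0.412 within PI7. All 4 were thus above the PI7 pair and 2 of them above the G90 pair. The 2 glands of L0, L20 and PI2 were 0.293, 0.602 and 0.683 apart there, so the ranges overlap too. The mean distance from G90 in EPCAM nuclei was 0.586 to L0, 0.651 to L20 and 0.597 to PI2. In all nuclei it was 0.648 to PI7, 0.588 to L0, 0.701 to L20 and 0.626 to PI2.

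Each PI7 gland lay closest to a gland of another stage, and in all nuclei so did each gland of G90, L20 and PI2. There G90 replicate 1 was 0.406 from PI7 replicate 1, and G90 replicate 2 was 0.536 from each L0 gland, beside 0.607 between the G90 glands. In all nuclei PI7 replicate 2 was 0.254 from PI2 replicate 1, and PI7 replicate 1 was 0.297 from L20 replicate 2. In EPCAM nuclei these pairs were 0.264 and 0.352 apart. G90 replicate 2 also stood apart from the other 3 libraries, with few nuclei of stroma and immune markers and high interferon genes, given below with its values. For this reason each value below is printed per library.

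**Figure D1:**
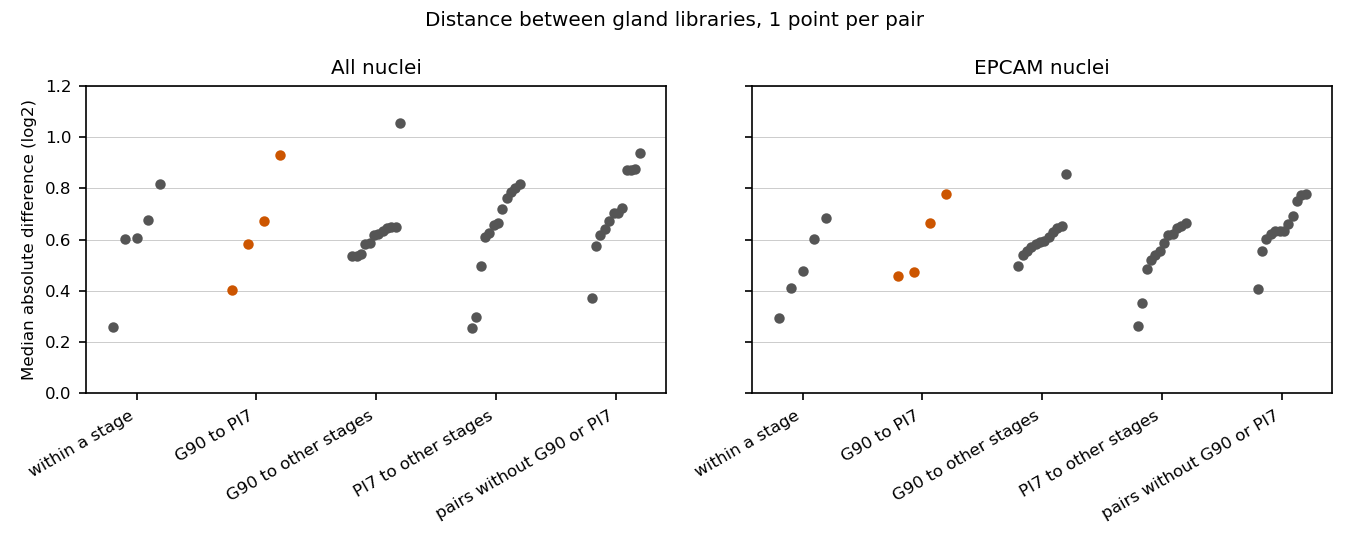
Distance between gland libraries, as the median absolute log2 difference over genes with a mean of at least 10 CPM; each point is 1 pair of libraries, in all nuclei (left) and EPCAM nuclei (right). The 4 orange pairs of G90 and PI7 span 0.406 to 0.929 and 0.457 to 0.779. Pairs within a stage run from 0.260 to 0.817 in all nuclei and from 0.293 to 0.683 in EPCAM nuclei.

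Nuclei with markers of macrophages, lymphatic and blood vessels, mural cells, lymphocytes and adipocytes were more frequent in both PI7 glands than in both G90 glands. A nucleus was counted for a class with at least 2 UMIs over the class markers, so 1 nucleus can count in several classes. Macrophage markers were found in 8.54% and 2.85% of nuclei at G90 and in 21.4% and 14.0% at PI7. Lymphatic endothelial markers were found in 7.45% and 2.80% against 15.2% and 11.9%, and blood endothelial markers in 24.96% and 23.0% against 36.0% and 26.2%. For mural cells, which wrap small vessels, the shares were 4.25% and 0.728% against 7.33% and 7.70%. The G90 and PI7 glands did not overlap in any of these 4 classes. B and plasma cell markers stood at 9.40% and 3.89% against 23.1% and 14.0%. T and NK cell markers stood at 8.09% and 2.04% against 10.6% and 9.81%, and adipocyte markers at 4.88% and 2.02% against 10.7% and 9.57%. These 3 classes did not overlap either, and in each of the 7 classes G90 replicate 2 was the lowest library.

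The epithelial and fibroblast classes overlapped. Luminal markers were found in 38.9% and 39.6% of nuclei at G90 and in 29.0% and 40.4% at PI7, myoepithelial markers in 30.5% and 8.06% against 32.5% and 23.1%, and fibroblast markers in 28.3% and 4.80% against 28.1% and 18.5%. G90 replicate 1 lay within or near the PI7 glands in the last of these, and G90 replicate 2 was far below the other 3. Granulocyte markers were rare, in 0.331% and 0.0374% of nuclei against 0.455% and 0.179%. The exact permutation test (two-sided, over libraries) gave p = 0.333 for the 7 classes that did not overlap, the smallest p that this design allows, and at least 0.667 for EPCAM and the other 5 classes.

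Nuclear depth differed between the stages, so each nucleus was also thinned to 1000 UMIs, which left out 2863 and 2541 shallower nuclei at G90 and 4305 and 2376 at PI7. After thinning, macrophage shares were 4.60% and 1.21% against 12.9% and 8.84%, and blood endothelial shares 11.4% and 7.01% against 25.2% and 15.5%, still without overlap. T and NK shares then overlapped (5.39% and 0.780% against 5.89% and 3.68%), as they did with at least 500 genes per nucleus (8.66% and 1.99% against 10.7% and 8.32%), and luminal shares turned round, at 17.2% and 12.5% against 17.4% and 24.99%. With only 1 UMI asked for, blood endothelial shares overlapped, at 47.2% and 45.1% against 58.3% and 46.2%. Most nuclei counted at 2 UMIs did not carry 3 different markers of the class. With 3 different markers, B and plasma cell shares were 0.183% and 0.0374% against 0.791% and 0.248%, adipocyte shares 0.122% and 0.0535% against 0.839% and 0.705%, macrophage shares 2.68% and 0.653% against 7.13% and 5.91%, and T and NK shares 3.63% and 0.369% against 3.13% and 3.09%. Blood endothelial shares were 5.12% and 1.17% against 15.4% and 9.16%. The T and NK shares overlapped under this rule and the other 6 classes did not. The 2 UMI shares are therefore shares of nuclei with marker UMIs and not of cell types.

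Binomial 95% intervals (Clopper-Pearson) were narrow beside the gap between sows, for example 20.8% to 22.0% for macrophage markers in PI7 replicate 1, and cover counting error only.

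**Figure D2:**
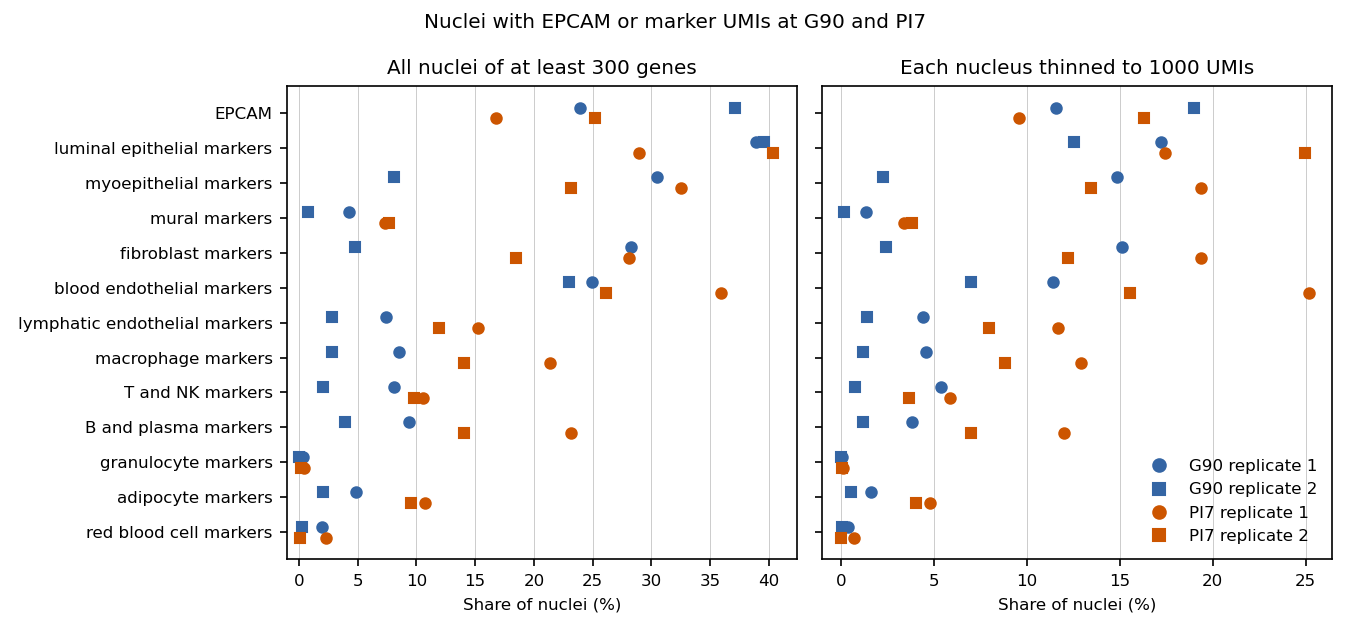
Share of nuclei (%) with at least 1 EPCAM UMI or at least 2 UMIs over a marker list, before (left) and after (right) thinning each nucleus to 1000 UMIs; blue is G90, orange is PI7, circles are replicate 1 and squares replicate 2. Macrophage markers sit at 2.85% and 8.54% at G90 and 14.0% and 21.4% at PI7, while luminal markers overlap on the left only.

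In the sums over all nuclei, no gene passed the test. Genes were called at an adjusted p under 0.05 (edgeR quasi-likelihood test, Benjamini-Hochberg) with an absolute log2 fold change over 1. By edgeR 0 of 22658 genes were called higher at PI7 (0.0%) and 0 lower (0.0%), the smallest adjusted p was 0.28, and 1724 genes had an unadjusted p under 0.05. DESeq2 on the same sums called 393, of which 170 were higher and 223 lower. A description without a test was used beside this: a gene was taken as apart when both PI7 libraries lay on 1 side of both G90 libraries and the log2 fold change exceeded 1 in size. By this measure 2633 genes (11.6%) were apart and higher at PI7 and 1408 (6.21%) apart and lower.

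In EPCAM nuclei 8 of 16896 genes were called, 2 that rose (0.0118%) and 6 that fell (0.0355%), with 2384 genes at an unadjusted p under 0.05. DESeq2 called 936, among them all 8. Apart were 2464 higher genes (14.6%) and 1687 lower ones (9.98%). The 8 calls rest on all 4 libraries: without G90 replicate 2, PI7 replicate 1 or PI7 replicate 2 there were 0 calls, and without G90 replicate 1 there were 16, of which 4 were among the 8. With each nucleus thinned to 1000 UMIs there were 0 calls (smallest edgeR adjusted p = 0.072), and with the replicate number as a block 1.

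The 2 genes that rose in EPCAM nuclei were ACP5 and GCLC. ACP5 (chr2:70206159-70209855), the tartrate-resistant acid phosphatase of osteoclasts and activated macrophages, was at 1.65 and 1.04 CPM at G90 and 205 and 86.0 CPM at PI7. Both PI7 glands were far above both G90 glands, a log2 fold change of 6.76 ± 0.81 (SE, edgeR adjusted p = 0.035). GCLC (chr7:27209565-27253535), the catalytic subunit of the enzyme that starts glutathione synthesis, was at 26.4 and 20.6 CPM at G90 and 189 and 272 CPM at PI7. Its stages did not overlap, and it rose 9.81-fold (log2 3.29 ± 0.40, SE, edgeR adjusted p = 0.035). In EPCAM nuclei without a UMI of the 6 other markers GCLC was still called (log2 3.32 ± 0.42, edgeR adjusted p = 0.040). ACP5 there stood at 0.270 and 0.553 CPM against 80.9 and 14.5 CPM and was not called (log2 6.62 ± 1.04, edgeR adjusted p = 0.082). In all nuclei ACP5 was at 3.51 and 1.49 CPM against 326 and 88.4 CPM.

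Among the genes that fell, 4 carry a symbol. PAPLN (chr7:96584894-96622487), papilin of the extracellular matrix, was at 611 and 1616 CPM at G90 and 20.4 and 13.9 CPM at PI7, and fell 64.7-fold (log2 -6.02 ± 0.73, SE, edgeR adjusted p = 0.035). RSPO1 (chr6:93664839-93690328), a secreted R-spondin that raises Wnt signalling, was at 48.8 and 42.7 CPM at G90 and 1.08 and 0.484 CPM at PI7, where 15 and 4 UMIs were counted (log2 -5.80 ± 0.73). CHODL (chr13:182409113-182829797), a membrane protein with a C-type lectin domain, was at 169 and 330.4 CPM against 9.44 and 8.84 CPM (log2 -4.77 ± 0.55). MCOLN2 (chr6:128772904-128836958), a cation channel of endosomes and lysosomes, was at 497 and 1363 CPM against 63.6 and 62.8 CPM (log2 -3.88 ± 0.52, edgeR adjusted p = 0.049). In EPCAM nuclei without the 6 other markers PAPLN and CHODL were still called (edgeR adjusted p = 0.040), and RSPO1 and MCOLN2 were not (edgeR adjusted p = 0.082). In all 4 genes the PI7 glands lay far below the G90 glands and close to each other relative to that gap. The remaining 2 carry no symbol, ENSSSCG00000033794 (60.9 and 77.5 CPM against 0.144 and 0.242 CPM) and ENSSSCG00000047356 (19.0 and 17.0 CPM against 0.360 and 0.484 CPM).

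For RSPO1, CHODL, GCLC and PAPLN at least some of the other stages lay on the same side of G90 as PI7 did. Each stage was set against the same 2 G90 libraries, so the values stand side by side only. RSPO1 was at 3.26 and 5.49 CPM at L0, 0.750 and 1.504 CPM at L20 and 2.49 and 0.971 CPM at PI2. CHODL was at 29.7 and 20.7 CPM, 11.6 and 20.5 CPM, and 9.71 and 16.7 CPM at these stages. Both were thus low in all 8 libraries after G90. GCLC was at 19.7 and 25.4 CPM at L0, like G90, and at 198 and 146 CPM at L20 and 199.8 and 239.5 CPM at PI2, like PI7. ACP5 stayed at or under 12.4 CPM in the 6 libraries between G90 and PI7. PAPLN was at 185 and 288 CPM at L0 and 14.2 and 10.5 CPM at L20.

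The next genes by the unadjusted p were not called. Higher at PI7 were NQO1, a quinone reductase (0.619 and 0.497 CPM against 14.8 and 7.39 CPM, edgeR adjusted p = 0.060), and MAB21L3 (5.37 and 5.79 CPM against 43.5 and 73.3 CPM, edgeR adjusted p = 0.059). MAB21L3 was called in EPCAM nuclei without the 6 other markers (log2 3.65 ± 0.45, edgeR adjusted p = 0.040). PDK4, which keeps pyruvate out of the citric acid cycle, was at 18.3 and 47.5 CPM against 553 and 503 CPM. TXNIP, which limits glucose uptake, was at 219 and 197 CPM against 1299.6 and 922 CPM, and IRS2, an adaptor of the insulin receptor, at 24.4 and 17.2 CPM against 97.1 and 102 CPM. The edgeR adjusted p was 0.060 for PDK4 and TXNIP and 0.076 for IRS2. The others were CTSD and CD68, given below, and OLFML3, a secreted olfactomedin protein (23.5 and 13.4 CPM against 144 and 244 CPM).

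Lower at PI7 without a call were MRAP2, an accessory protein of melanocortin receptors (37.8 and 73.4 CPM against 3.602 and 4.12 CPM), PTPRT, a receptor phosphatase (873 and 444 CPM against 54.6 and 45.2 CPM), and KCNH8, a potassium channel (693 and 519 CPM against 40.9 and 34.6 CPM). KIF16B, a kinesin that moves early endosomes, was at 689 and 825 CPM against 165 and 152 CPM, and CRACD, a regulator of actin capping, at 233 and 149.5 CPM against 16.0 and 12.6 CPM. Their edgeR adjusted p lay between 0.059 and 0.076. The milk protein gene CSN1S1 completes the genes chosen by p.

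**Figure D3:**
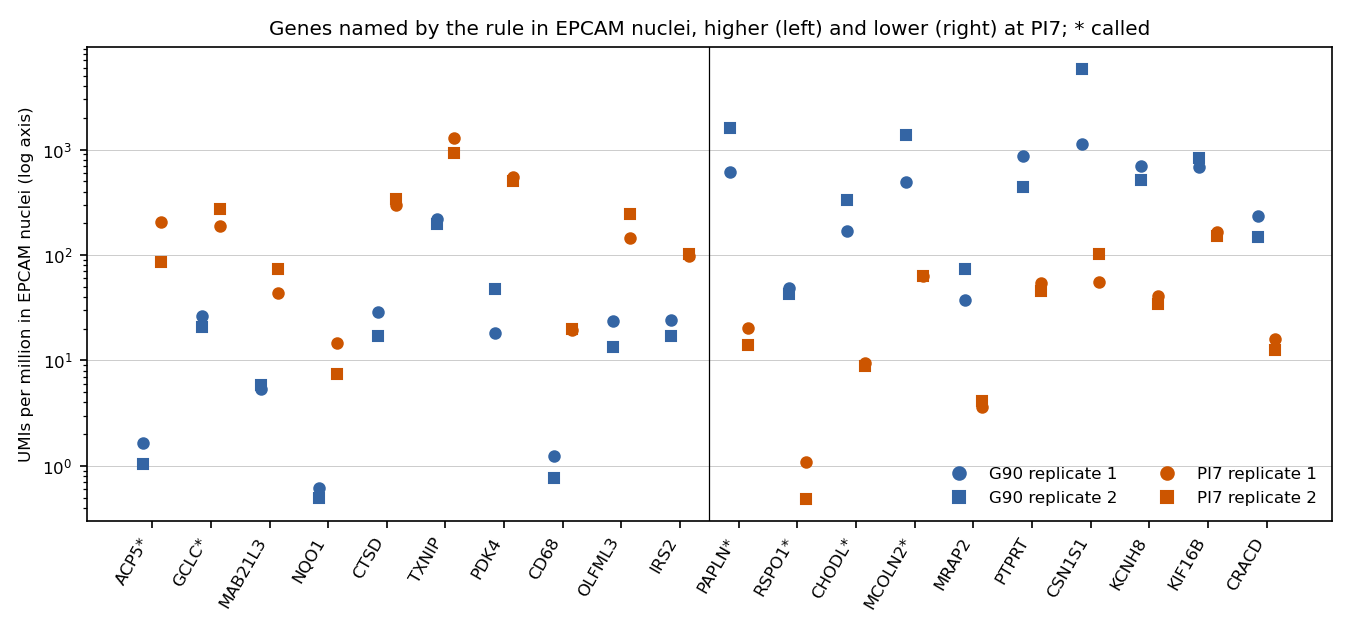
Level (CPM, log axis) of the 20 genes named by the rule in EPCAM nuclei of the 4 glands; blue is G90, orange is PI7, circles are replicate 1, squares are replicate 2, and asterisks mark called genes. ACP5 lies at 1.04 and 1.65 CPM at G90 and 86.0 and 205 CPM at PI7, and the uncalled genes were picked among those whose stages do not overlap.

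The milk protein genes were the list that stood lowest at PI7. The median log2 fold change of its 6 tested members was -4.95 in EPCAM nuclei and -5.24 in all nuclei, beside -0.00347 and 0.0623 over all genes tested. In EPCAM nuclei, 0 members were called and 5 were apart and lower, beside 9.98% of all genes. Without G90 replicate 2 the medians were -2.70 in EPCAM nuclei and -2.54 in all nuclei. CSN1S1, alpha-S1 casein, was at 1128 and 5872 CPM at G90 and 55.3 and 102 CPM at PI7 (log2 -5.47 ± 0.84, edgeR adjusted p = 0.060). PAEP, a beta-lactoglobulin gene, was at 4985 and 6089.5 CPM against 235 and 276 CPM (log2 -4.44 ± 0.73, edgeR adjusted p = 0.076). CSN2, beta casein, was at 99.0 and 3046 CPM against 2.16 and 0.363 CPM, and CSN3, kappa casein, at 199.5 and 1038 CPM against 106 and 119 CPM. LALBA, named after its value was seen, the alpha-lactalbumin that turns galactosyltransferase to lactose synthesis, was at 0.138 and 92.0 CPM against 0.144 and 0 CPM, so that it was near 0 in G90 replicate 1 as well. The G90 glands themselves differed widely, with replicate 2 the higher in each of the 5 genes. Summed over the list, EPCAM nuclei held 6415 and 16140 CPM at G90, 22706 and 22286 CPM at L0, 1584 and 480.0 CPM at L20, 2445 and 3236 CPM at PI2, and 401 and 498 CPM at PI7. The PI7 glands were thus the lowest but for 1 L20 gland, which lay between them.

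Genes of milk fat and lactose were lower at PI7 in most members. Of 22 milk fat genes in EPCAM nuclei 12 were apart and lower and 1 apart and higher (median -1.30), against 9.98% and 14.6% of all genes. Without G90 replicate 2 the median was -0.25, and -0.097 in all nuclei. In this list edgeR called 0, beside 936 genes by DESeq2 and 2384 at an unadjusted p under 0.05 in the whole table. XDH, xanthine dehydrogenase of the milk fat globule, was at 309 and 5273 CPM against 16.1 and 17.1 CPM, with G90 replicate 2 far above the other 3. FASN, fatty acid synthase, was at 352 and 1066 CPM against 190.1 and 309 CPM, and ACACA, which makes malonyl-CoA for it, at 278 and 752 CPM against 229.5 and 272 CPM. PLIN2 of lipid droplets was at 413 and 615 CPM against 161 and 246 CPM. FABP3, LPL and SREBF1 were picked after their values were seen. FABP3, a fatty acid carrier, was at 248 and 404 CPM against 27.7 and 28.1 CPM. LPL, lipoprotein lipase, was at 179.9 and 431 CPM against 35.7 and 36.7 CPM. SREBF1, the factor that drives lipid synthesis, was at 258 and 751 CPM against 70.9 and 62.8 CPM. Their gaps were wider than those of FASN, ACACA and PLIN2. Of 9 lactose and glucose genes 5 were apart and lower and 1 apart and higher, against the same shares (median -1.43, and -0.49 without G90 replicate 2). B4GALT1, the galactosyltransferase of lactose synthesis, was at 513 and 1295 CPM against 137 and 181 CPM, SLC5A1, a sodium-glucose carrier, at 179.9 and 414 CPM against 39.3 and 39.2 CPM, and UGP2, which makes UDP-glucose, at 171 and 483 CPM against 139 and 104 CPM. HK1, a hexokinase, overlapped (68.9 and 27.6 CPM against 70.9 and 68.8 CPM).

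The prolactin pathway was lower in some members and not in others. Of its 10 tested genes 3 were apart and lower in EPCAM nuclei, beside 9.98% of all genes, and 0 apart and higher, and 0 were called. The median was -0.47, and -0.23 without PI7 replicate 2. STAT5B was at 1734 and 2056 CPM against 432 and 815 CPM (log2 -1.60 ± 0.47), and STAT5A, named after its value was seen, at 894 and 1151 CPM against 107 and 251 CPM (log2 -2.51 ± 0.68). Both are the factors that prolactin activates at casein genes. PRLR, the prolactin receptor, was at 2233 and 1802 CPM against 879.8 and 1101 CPM (log2 -1.03 ± 0.75). ELF5, an alveolar factor downstream of it, was at 919 and 1388 CPM against 398 and 834 CPM (log2 -0.90 ± 0.70), with a log2 fold change from -0.46 without PI7 replicate 1 to -1.52 without PI7 replicate 2, so that 1 gland decided whether it passed the threshold of size. NFIB, a nuclear factor I protein, was at 1208 and 1100.1 CPM against 1603 and 1857 CPM.

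Cell division genes were lower at PI7. All 31 had a negative log2 fold change in both kinds of sums (30 of 31 without scaling beyond the library total), with a median of -1.70 in EPCAM nuclei and -1.56 in all nuclei. Apart and lower were 23 and 21 of them, beside 9.98% and 6.21% of all genes, and 0 were called. TOP2A, the topoisomerase of dividing cells, was at 79.3 and 242 CPM against 8.21 and 4.12 CPM in EPCAM nuclei (log2 -4.69 ± 1.06, edgeR adjusted p = 0.12). CENPF, a kinetochore protein, was at 120.0 and 409 CPM against 11.5 and 6.54 CPM (log2 -4.86 ± 0.93, edgeR adjusted p = 0.093), and CENPE at 141 and 635 CPM against 92.0 and 37.3 CPM. Among the genes of DNA synthesis, RRM1 (131 and 146 CPM against 87.6 and 98.9 CPM) and PCNA (14.995 and 15.8 CPM against 13.1 and 10.2 CPM, named after its value was seen) differed little. The list holds further genes of DNA synthesis that are not printed, and RRM1 and PCNA do not stand for them. Summed over the list, levels were 1348 and 2994 CPM at G90 and 507 and 417 CPM at PI7, beside 541 and 553 CPM at L0, 824 and 478 CPM at L20 and 503 and 383 CPM at PI2. Both G90 glands were the highest of the 10.

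**Figure D4:**
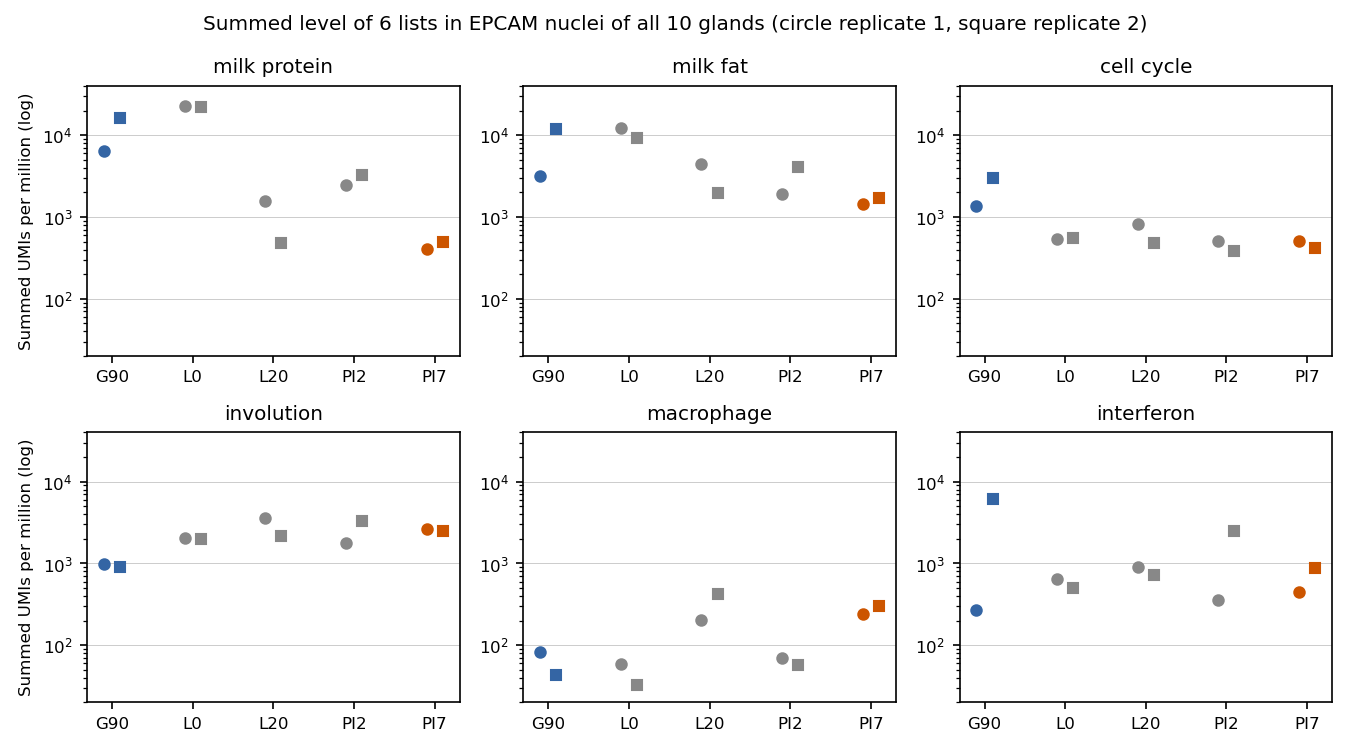
Summed level (CPM, log axis) of 6 gene lists in EPCAM nuclei of the 10 glands, 1 point per library, with G90 in blue, PI7 in orange and the other stages in grey. The milk protein sum is 401 and 498 CPM at PI7 against 6415 and 16140 CPM at G90, and the cell cycle sum is highest in both G90 glands.

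The luminal, luminal progenitor, tight junction and myoepithelial lists had positive medians in EPCAM nuclei, with 0 members called. The luminal progenitor list had 3 of 9 genes apart and higher, beside 14.6% of all genes, and 0 lower (median 0.48, and 1.05 without G90 replicate 1). ALDH1A3, an aldehyde dehydrogenase of luminal progenitors, was at 66.8 and 13.8 CPM against 378 and 437 CPM (log2 3.34 ± 0.94), and CD14, an endotoxin co-receptor named after its value was seen, at 6.53 and 2.21 CPM against 97.9 and 104 CPM (log2 4.54 ± 0.92, edgeR adjusted p = 0.098). EHF, an epithelial ETS factor, was at 1566 and 1489.8 CPM against 1047 and 1427 CPM, and KIT, a receptor of luminal progenitors, at 499 and 337 CPM against 756 and 641 CPM. Of 6 luminal epithelial markers 4 were apart and higher (median 1.48), beside 14.6% of all genes. In all nuclei 3 of 7 were, beside 11.6% of all genes, with a median of 0.56 and library pairs from 0.020 to 0.99. The most abundant was CDH1, E-cadherin (318 and 187 CPM against 387 and 354 CPM), short of the threshold of size, and KRT7 overlapped (174 and 108 CPM against 172 and 274 CPM). KRT8, a keratin of simple epithelia, was at 113 and 17.4 CPM against 324 and 174 CPM, and its partner KRT18, named after its value was seen, at 25.8 and 4.25 CPM against 82.1 and 56.4 CPM. CLDN4 of tight junctions was at 79.9 and 71.9 CPM against 167 and 143 CPM, and CLDN8, picked after its value was seen, at 38.5 and 41.2 CPM against 172 and 150.4 CPM. The tight junction list as a whole had a median of 0.44 (0.20 without PI7 replicate 2), with 4 of 13 apart and higher beside 14.6% of all genes. Abundant members lay on the other side, short of the threshold of size, with the polarity protein PARD3 at 795 and 885 CPM against 508 and 643 CPM and the scaffold TJP1 at 161 and 238 CPM against 146 and 92.3 CPM. For myoepithelial genes the median was 0.92, with library pairs from -0.18 to 3.05, and it was 2.95 without G90 replicate 1 and 0.076 without G90 replicate 2. KRT14 was at 146 and 32.3 CPM against 319 and 257 CPM, whereas ACTA2 overlapped (77.7 and 8.54 CPM against 94.3 and 68.4 CPM).

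Genes of steroid receptors and linked signals, which are not of 1 cell type, were mixed. Their median was -0.17 (0.0095 without scaling beyond the total) over 12 tested. Of these 2 were apart and higher and 3 apart and lower, beside 14.6% and 9.98% of all genes. The median ranged from -0.39 without PI7 replicate 1 to 1.25 without G90 replicate 1. ESR1, the oestrogen receptor, was at 177 and 142 CPM against 320.0 and 278 CPM, below the threshold of size. GATA3, a luminal factor, was at 248 and 427 CPM against 119.6 and 209 CPM. Picked after their values were seen, FOXA1, which opens chromatin for ESR1, was at 5.98 and 1.81 CPM against 66.6 and 29.8 CPM (log2 3.64 ± 0.90), and TNFRSF11A, the RANK receptor of the signal that progesterone induces, at 152 and 221 CPM against 52.3 and 66.6 CPM (log2 -1.65 ± 0.56). So 2 genes of 1 list stood on opposite sides, and neither was called.

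Most genes of the involution list were higher at PI7. In EPCAM nuclei 13 of 20 involution genes were apart and higher and 0 lower (median 1.35), against a share of 14.6% apart and higher over all genes, and 0 were called. CTSD, a lysosomal aspartic protease, was at 28.9 and 17.1 CPM against 298 and 338 CPM (log2 3.79 ± 0.57, edgeR adjusted p = 0.060). IL6ST, the shared receptor chain of the interleukin-6 family, was at 194 and 98.5 CPM against 575 and 462 CPM, and IGFBP5, which holds back insulin-like growth factors, at 82.7 and 61.9 CPM against 446 and 180.3 CPM. STAT3 itself was at 157 and 223 CPM against 288 and 419.8 CPM, which did not overlap but fell short of the threshold of size, and it reached 1047 CPM in 1 L20 gland and 1059.7 CPM in 1 PI2 gland. The summed list was at 994 and 906 CPM at G90, 2638 and 2517 CPM at PI7, and between 1772 and 3579 CPM in the 6 other libraries, so that PI7 lay among the other stages and G90 below all of them. Genes of apoptosis were close to G90, with a median of 0.25 and 2 of 14 apart and higher, near the 14.6% of all genes. Their median ranged from 0.097 without G90 replicate 1 to 0.60 without G90 replicate 2.

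In all nuclei the genes with the smallest p were not called. SPP1, osteopontin, was at 59.8 and 36.1 CPM at G90 and 1986 and 782 CPM at PI7. MMP9, a gelatinase of inflammatory cells, was at 1.36 and 0.417 CPM against 143 and 28.2 CPM, and CD68, a lysosomal membrane protein of macrophages, at 2.27 and 1.01 CPM against 30.6 and 29.3 CPM. The remaining higher genes of the rule were TREH, CTSD, PDK4, SMPDL3A, SLC37A2, IFI30 and ACP5, from 2.78 (SLC37A2) to 6.37 (ACP5) on the log2 scale, and their edgeR adjusted p was 0.28 or, for MMP9 and SPP1, 0.29. CTSD was at 30.1 and 19.9 CPM against 382 and 429 CPM there. On the lower side the rule gave PAPLN, KCNH8, CHODL, RSPO1, AKAP11, MRAP2, PTPRT, MCOLN2, SAPCD2 and AOX1, from -6.20 (PAPLN) to -2.84 (AKAP11). The rule took only genes whose stages do not overlap.

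The macrophage markers themselves were higher in 9 of 10 members, with a median of 2.08 and 8 apart and higher, beside 11.6% of all genes. CD163, a haemoglobin scavenger receptor, was at 46.8 and 13.3 CPM against 114 and 133 CPM, CSF1R, the receptor that macrophages need to survive, at 22.6 and 13.1 CPM against 65.5 and 95.8 CPM, and C1QB of complement at 16.8 and 5.11 CPM against 40.9 and 60.7 CPM. MRC1 was at 38.2 and 21.2 CPM against 53.8 and 61.6 CPM. MARCO, a scavenger receptor named after its value was seen, was low at both stages (at most 4.08 CPM) and was the 1 member with a lower mean at PI7. Summed macrophage markers were 170.2 and 79.5 CPM in all nuclei at G90 and 407 and 518 CPM at PI7. In EPCAM nuclei the same markers summed to 83.6 and 43.7 CPM against 239 and 301 CPM. There 8 of 10 were apart and higher and 1 lower, beside 14.6% and 9.98% of all genes. Macrophage markers were thus higher at PI7 in these nuclei too. Their part in ACP5, CTSD, CD68 and CD14 above was not tested. In EPCAM nuclei without the 6 other markers 7 of the 10 macrophage markers were apart and higher (median 1.65), beside 13.0% of all genes there. MSR1 was higher by less than the threshold of size, and MRC1 (13.8 and 6.41 CPM against 14.2 and 11.8 CPM) and MARCO overlapped. CD163 was at 4.05 and 2.21 CPM against 17.4 and 30.8 CPM there, CSF1R at 6.21 and 8.51 CPM against 19.4 and 29.4 CPM, and C1QB at 8.38 and 2.65 CPM against 17.7 and 19.6 CPM. In the same nuclei CTSD stood at 21.1 and 17.1 CPM against 158 and 203 CPM, CD14 at 6.21 and 1.99 CPM against 108 and 111 CPM and CD68 at 1.35 and 0.774 CPM against 11.5 and 14.9 CPM.

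Vessel genes were higher at PI7, in 7 of 8 blood endothelial markers (median 1.59), 5 of 6 lymphatic markers (median 1.59) and 5 of 6 mural markers (median 1.75) that were apart, beside 11.6% of all genes. Without G90 replicate 1 the blood endothelial and mural medians were 2.58 and 2.66, and without G90 replicate 2 the blood endothelial median was 1.03. KDR, the main VEGF receptor of endothelium, was at 18.8 and 10.9 CPM against 73.3 and 91.5 CPM, and VWF at 71.8 and 22.7 CPM against 148 and 106 CPM. PECAM1 overlapped, at 195 and 347 CPM against 297 and 316 CPM. VEGFA, the ligand of KDR, named after its value was seen, went the other way in EPCAM nuclei, at 31.6 and 111 CPM against 10.1 and 12.4 CPM. FLT4, the VEGF receptor of lymphatic vessels, was at 17.1 and 5.07 CPM against 57.3 and 131 CPM, and CCL21, a chemokine of lymphatic endothelium, at 26.6 and 18.2 CPM against 65.8 and 127 CPM. Among mural markers RGS5 was at 6.59 and 1.58 CPM against 24.2 and 27.1 CPM and PDGFRB at 18.4 and 6.08 CPM against 43.4 and 85.8 CPM. Growth factors and their receptors as a list had a median of 0.27, with 5 of 24 apart and higher and 1 lower, beside 11.6% and 6.21% of all genes. This median ranged from 0.038 without PI7 replicate 2 to 0.69 without G90 replicate 1. HGF, named after its value was seen, was at 13.2 and 4.59 CPM against 62.0 and 45.4 CPM.

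Fat cell genes were higher in part, and 0 were called. Of 9 adipocyte markers 5 were apart and higher (median 1.26), and of 17 adipokine and lipolysis genes 9 were apart and higher and 1 lower (median 1.23, and 0.81 without G90 replicate 2), beside 11.6% and 6.21% of all genes. FABP4, the fatty acid carrier of adipocytes, was at 4.46 and 5.33 CPM against 42.9 and 51.8 CPM in all nuclei (log2 3.27 ± 0.70, edgeR adjusted p = 0.29). ADIPOQ, adiponectin, was at 2.36 and 1.84 CPM against 11.6 and 11.8 CPM, beside 113 CPM in 1 L20 gland, and PNPLA2, which starts triglyceride breakdown, was at 14.3 and 20.9 CPM against 34.5 and 89.8 CPM. The lower gene was LPL, the most abundant of the 17 (125 and 402 CPM against 31.2 and 41.6 CPM). The next in abundance were CD36, a fatty acid receptor (24.5 and 122 CPM against 187 and 203 CPM), MGLL, which splits monoglycerides (21.6 and 8.36 CPM against 71.9 and 76.2 CPM), and PPARG, the adipocyte factor (36.3 and 19.6 CPM against 64.6 and 69.2 CPM).

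Genes that cut the matrix and genes that form it were both higher in part. Of 23 proteases and inhibitors 12 were apart and higher and 1 lower in all nuclei (median 1.36), while of 26 collagen and matrix genes 10 were apart and higher and 0 lower (median 0.58), beside 11.6% and 6.21% of all genes. Without G90 replicate 1 the medians were 2.37 and 1.91, and without G90 replicate 2 the collagen and matrix median was 0.17. MMP2, a gelatinase of stroma, was at 19.4 and 4.96 CPM against 97.0 and 182 CPM, and its inhibitor TIMP3 at 102 and 23.9 CPM against 307 and 326 CPM. In EPCAM nuclei 11 of 22 proteases and inhibitors were apart and higher and 2 lower (median 1.64), beside 14.6% and 9.98% of all genes. The 2 lower ones were MMP16 and ADAMTS9. MMP16, a membrane-bound protease, was at 511 and 423 CPM against 23.3 and 23.7 CPM (log2 -4.31 ± 0.88, edgeR adjusted p = 0.098), and ADAMTS9, a protease of proteoglycans named after its value was seen, at 193 and 38.9 CPM against 25.9 and 9.08 CPM. MMP7, a protease of glandular epithelium, was at 37.8 and 0.226 CPM against 284 and 174 CPM. In all nuclei COL1A1, the main fibrillar collagen, overlapped (221 and 41.4 CPM against 146 and 128 CPM), and its log2 difference of 0.062 became -0.69 without G90 replicate 2. FN1, named after its value was seen, was at 108 and 8.78 CPM against 173 and 139 CPM.

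Genes of antibody transport were mixed and those of antigen presentation were higher in part, with 0 called in either, and interferon genes turned on 1 gland. Of 7 antibody transport genes 4 were apart and higher and 1 lower in all nuclei (median 1.38), beside 11.6% and 6.21% of all genes. JCHAIN, which joins secreted IgA, was at 56.1 and 32.6 CPM against 207 and 270.1 CPM. CCL28, the chemokine that draws IgA plasma cells to the gland, was at 82.4 and 203 CPM against 7.61 and 62.9 CPM. PIGR, which carries IgA across the epithelium (48.9 and 336 CPM against 138 and 251 CPM), and LTF, lactoferrin (103 and 144 CPM against 24.0 and 134 CPM), overlapped. Of 10 antigen presentation genes 5 were apart and higher, beside the same 11.6%, and 0 lower (median 1.09), with SLA-DQB1, a class II chain, at 31.9 and 9.28 CPM against 156 and 141 CPM and CD74 at 323 and 126 CPM against 582 and 457 CPM. B2M was at 186 and 424 CPM against 606 and 583 CPM, and NLRC5, a class I regulator, overlapped (50.2 and 142 CPM against 63.4 and 125 CPM). The 18 interferon genes had a median of -1.85 with 0 apart in either direction, and a median of 1.89 without G90 replicate 2. OAS2, an antiviral synthetase, was at 41.4 and 1656 CPM against 45.4 and 102 CPM, and MX1, an antiviral GTPase, at 7.35 and 894 CPM against 20.7 and 129 CPM. Of the 4 libraries compared G90 replicate 2 alone was high, with a summed interferon level of 6406 CPM. The other G90 gland was at 293 CPM and the PI7 glands at 505 and 1134 CPM. At the other stages PI2 replicate 2 was at 2622 CPM and the rest between 464 and 954 CPM. Without G90 replicate 2 the log2 fold changes were 0.83 for OAS2 and 3.35 for MX1.

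Immediate early and stress genes were higher in part at PI7. In EPCAM nuclei 9 of 13 were apart and higher and 1 lower (median 1.74), beside 14.6% and 9.98% of all genes, and in all nuclei 7 of 14 were apart and higher (median 1.22), beside 11.6%. The median in all nuclei was 2.35 without G90 replicate 1 and 0.54 without G90 replicate 2. FOS was at 387 and 52.3 CPM against 468 and 552 CPM in all nuclei, and DUSP1 at 158 and 71.8 CPM against 253 and 513 CPM. HSP90AA1, a chaperone, overlapped (364 and 436 CPM against 265 and 755 CPM). Mitochondrial genes differed more within a stage than between them, at 11418 and 1804 CPM summed in all nuclei at G90 and 8898 and 4992 CPM at PI7. The part of both lists in the differences above was not tested.

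**Figure D5:**
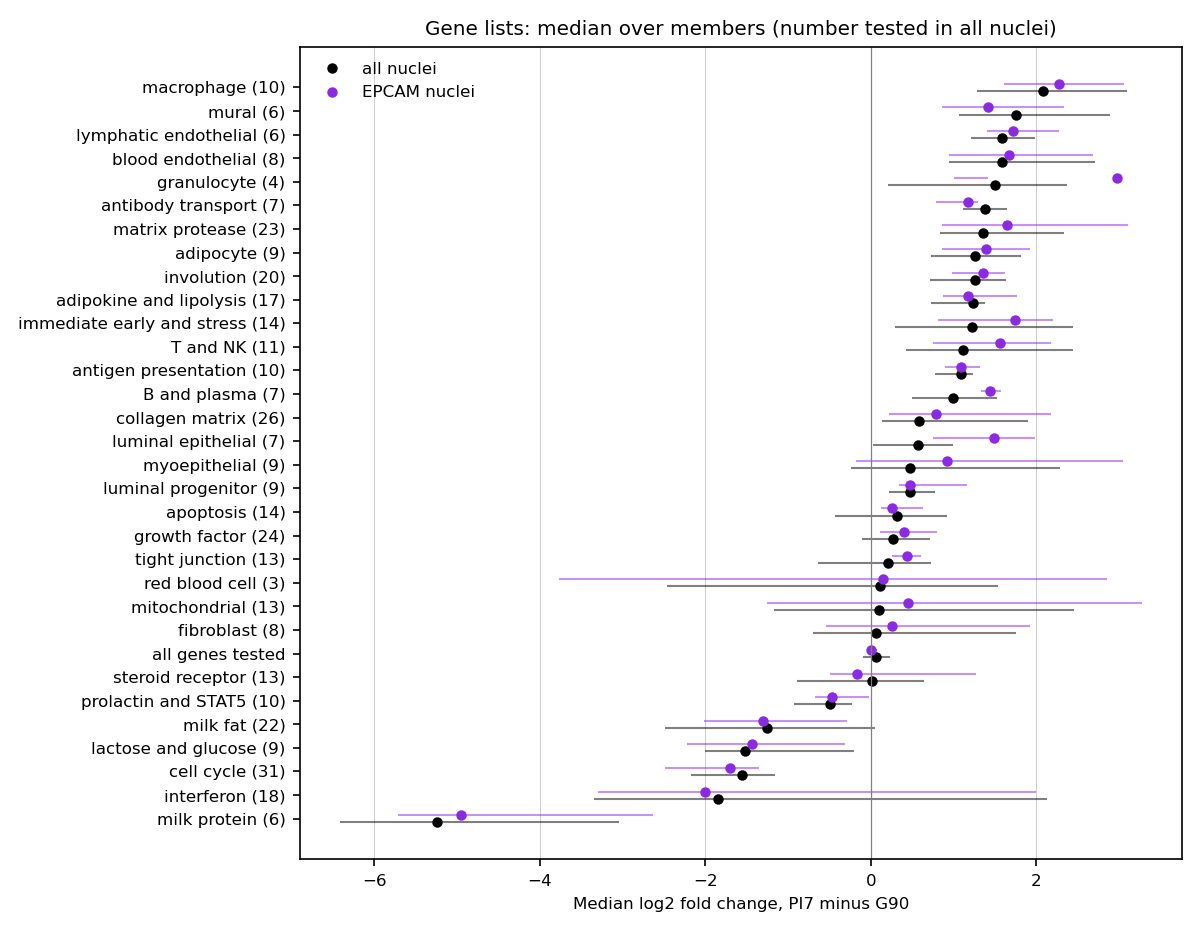
Median log2 fold change (PI7 minus G90) of 31 gene lists and of all genes tested, in all nuclei (black) and EPCAM nuclei (purple); points are medians of fitted values, bars run from the lowest to the highest median among the 4 pairs of a PI7 and a G90 library. Milk protein (-5.24 and -4.95) is at the bottom and macrophage markers (2.08 and 2.27) are at or near the top, the bars of interferon, fibroblast and mitochondrial genes cross 0, and the granulocyte point in EPCAM nuclei lies off its bar, over 3 genes of few UMIs.

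For 6 genes the change from G90 to PI7 itself differed between EPCAM nuclei and the other nuclei of the same glands, 3 more positive in EPCAM nuclei (0.014%) and 3 more negative (0.014%) of 21418 tested, with 928 at an unadjusted p under 0.05. In this fit each library entered as a pair of sums with the library as a block. PAPSS2, which makes the sulphate donor of the cell, was at 26.2 and 19.9 CPM against 94.3 and 111 CPM in EPCAM nuclei and at 33.7 and 16.6 CPM against 30.2 and 32.9 CPM in the others (log2 difference 1.75 ± 0.26, SE, edgeR adjusted p = 0.021). ALDH1A1, a retinal dehydrogenase, was at 10.6 and 10.6 CPM against 58.8 and 26.5 CPM in EPCAM nuclei and at 16.2 and 13.4 CPM against 13.7 and 12.9 CPM in the others (log2 difference 2.08 ± 0.32). Their higher level at PI7 was thus seen in EPCAM nuclei and not in the rest. The rest include many nuclei with UMIs of KRT8, KRT18 or CDH1, so this does not part epithelial from other cells. In EPCAM nuclei without the 6 other markers ALDH1A1 was at 8.38 and 8.40 CPM against 73.9 and 12.5 CPM. KCNIP4, a potassium channel partner, was higher at PI7 in both kinds, with 33.6 and 20.0 CPM against 182 and 559 CPM in EPCAM nuclei and 54.5 and 28.9 CPM against 96.7 and 136 CPM in the others (log2 difference 2.09 ± 0.34).

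MMP16 was at 545 and 459 CPM against 25.1 and 24.6 CPM in EPCAM nuclei and at 349 and 340.5 CPM against 67.8 and 48.7 CPM in the others (log2 difference -1.76 ± 0.30, SE, edgeR adjusted p = 0.032). SUSD5, a hyaluronan-binding membrane protein, was at 72.2 and 36.5 CPM against 3.09 and 3.14 CPM and at 44.6 and 25.4 CPM against 9.54 and 6.49 CPM (log2 difference -1.98 ± 0.32). NKD1, an inhibitor of Wnt signalling, was at 69.6 and 32.6 CPM against 9.51 and 11.5 CPM in EPCAM nuclei and overlapped in the others, at 60.3 and 32.9 CPM against 28.6 and 32.0 CPM (log2 difference -1.63 ± 0.27, edgeR adjusted p = 0.021). In each fit without 1 of the 4 libraries some of the 6 lost their call, and without scaling beyond the library total all 6 did. The other genes of the rule were not called, from 1.17 (ARID5B) to 1.85 (SPOCK1) on the positive side, where DNM3, DUSP6, LRP11, SIDT1 and EGR1 also stood, and from -1.47 (CHODL and LZTS1) to -1.19 (FYB1) on the negative side, with HS3ST1, ABCG2, COL4A2 and SNED1.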

How the data were processed

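Single-nucleus RNA was sequenced from pieces of frozen mammary gland, 1 library per sow and 2 sows per stage, so the replicates are separate animals. The authors deposited whole UMI counts per gene and nucleus, made with the CeleScope pipeline on the Sscrofa11.1 genome. The annotation release and any removal of doublets or free RNA are not given in the sources used here, and doublets were kept. Of 28711 gene identifiers, 15457 carried a symbol in the files and 639 took one from RefSeq.

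Counts of nuclei with at least 300 genes were summed per library, over all nuclei and over those with an EPCAM UMI, which leaves 21006477 to 53163303 and 7349558 to 25131250 UMIs per library. Genes passing filterByExpr were fitted over 10 gland libraries with edgeR 4.0.16 (TMM scaling, glmQLFit and glmQLFTest, R 4.3.3). CPM is UMIs per 1000000 of the scaled library size. A further fit tested the interaction of stage and nucleus kind with the library as a block, and its CPM values come from its own scaling. The scripts were tested on simulated data. Shares were compared by exact two-sided permutation tests over samples.

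Named genes were, per comparison and direction, up to 10 called genes by fold change, filled with the smallest unadjusted p among genes without overlap and with at least 10 CPM, and the 4 most abundant members of each of 31 lists, of which not all are printed. Other genes are said to be named after their values were seen. The comparison, its members and the gene lists were chosen with earlier results of these data known. Alternatives covered DESeq2 1.42.0, other scaling, filters, samples and definitions of nuclei. The scaling by the total alone and the rule of 3 different markers were added after seeing the data. Tissue sections and milk cells were not used here.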

Additional observations from a re-analysis of the deposited data

Results flagged for a closer look

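In 6 genes the change from G90 to PI7 differed between EPCAM nuclei and the other nuclei of the same glands by the interaction test itself. The log2 difference, EPCAM nuclei minus others, was 2.09 for KCNIP4, 2.08 for ALDH1A1, 1.75 for PAPSS2, -1.63 for NKD1, -1.76 for MMP16 and -1.98 for SUSD5. In each of the 6 the ratio of the EPCAM level to the other level in both PI7 glands lay on 1 side of both G90 glands. These ratios come from the sums that were tested, so they describe the calls and add no support. For KCNIP4 the ratios were 0.617 and 0.693 at G90 and 1.88 and 4.10 at PI7, and for SUSD5 they were 1.62 and 1.43 at G90 and 0.324 and 0.483 at PI7.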

How the results depend on the processing

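In all nuclei edgeR called 0 genes under 11 of 14 alternatives, 71 without the filter on low counts, 31 with only the 4 libraries in the fit and 393 by DESeq2. In EPCAM nuclei the 8 calls became 881 without the filter, 178 with only the 4 libraries, 936 by DESeq2, 35 with at least 2 EPCAM UMIs, 5 with at least 500 genes, 4 without nuclei of 6 other markers and 0 after thinning to 1000 UMIs, and 0 to 16 when 1 library was left out. Without scaling beyond the total, which put the median of all genes at 0.267 in all nuclei and 0.210 in EPCAM nuclei, there were 10 calls, 5 higher and 5 lower, beside 2 and 6. The 6 interaction genes became 102 without the filter, 147 with only the 4 libraries, 135 without the L20 libraries, 0 without scaling beyond the total, and 0 to 7 when 1 library was left out. With size factors of the DESeq2 type there were 4, of which 1 was positive and 3 negative.

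Replicate numbers did not pair the glands alike over the stages, since deviations correlated at 0.396 between G90 and PI7 but at -0.477 between G90 and L20 in all nuclei. In EPCAM nuclei the value between G90 and PI7 was 0.255. Whether the numbers pair G90 with PI7 alone cannot be told from these values. The replicate block gave 0 calls in all nuclei and 1 in EPCAM nuclei.

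Leaving out 1 library gave 7 to 19 lists with a median above 1 in all nuclei beside 13, 2 to 5 below -1 beside 5, and 2 to 6 below -1 in EPCAM nuclei beside 5. The luminal share turned to 6.33 points after thinning and to 4.18 with at least 3 different markers, and ranged from -10.26 to 1.148 when 1 library was left out. The same range was -2.71 to 19.75 for myoepithelial, -4.99 to 18.47 for fibroblast, -0.0143 to 0.280 for granulocyte and -1.04 to 1.23 for red blood cell markers. The red blood cell share was also negative with the other number of UMIs (-0.997) and with 3 markers (-0.00572). Of 2147 gene values recomputed, 7 changed sign, all in all nuclei. The genes chosen by the rule had stages that do not overlap, so leaving out 1 library could hardly turn their sign. The low count of changes is therefore no support for those genes. COL1A1 was at -0.039 with only the 4 libraries in the fit. When 1 library was left out, COL1A1 ranged from -0.69 to 1.72, MARCO from -3.50 to 0.084, MX1 from -4.54 to 3.35, OAS2 from -4.50 to 0.83, and PECAM1 from -0.19 to 0.65. The positive MX1 and OAS2 values and the lowest of COL1A1 came without G90 replicate 2, the positive MARCO value without PI7 replicate 2 and the negative PECAM1 value without G90 replicate 1. The cause was not tested for any of these. With 2 sows per stage no exact test of a single value can go below 0.333.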
